A study of Homo sapiens with 18 samples.

Results

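The 8 genes described here encode homing receptors, the surface proteins by which lymphocytes and their precursors read gradients of chemokines and of the lipid sphingosine 1-phosphate: *CXCR4*, *ACKR3*, *CCR7*, *ACKR4*, *S1PR1*, *CXCR5*, *CCR10* and *CXCR3*. They were taken by symbol from the count tables, where all 8 were found among 26941 genes. The choice was made with measured values in view, since *ACKR4* was selected on its fold change in 697, the largest increase in that line. The *ACKR4* change in 697 is therefore given as a description, with no test.

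RNA was sequenced from 18 samples of the B-lineage acute lymphoblastic leukemia lines REH, 697 and RCH-ACV. Each line gave 3 samples treated with *SOX11* siRNA and 3 treated with control siRNA. REH carries the ETV6-RUNX1 fusion. Every sample was grown in RPMI with serum, nucleofected with 300 nM siRNA and harvested 48 h later, so the controls had the same procedure with a non-specific siRNA. The labels call the treated samples KO, although an siRNA lowers a transcript by guided degradation and leaves the gene in place. A difference between lines cannot be told apart from how each line was grown and handled. The study calls the replicates biological.

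Total counts per library lay between 7039594 and 16592492, and 3 counts corresponded to between 0.18 and 0.437 CPM. This unit is the count scaled to a common library total, with TMM factors between libraries. *SOX11* itself fell in each line. Its log2 fold change by edgeR's quasi-likelihood test was -0.83 for REH (adjusted p = 1.41e-08), -0.91 for 697 (adjusted p = 0.000233) and -0.67 for RCH-ACV (adjusted p = 2.51e-06). Of 10 B-cell precursor markers, 9 had a mean over 1 CPM in REH and 10 in each of the other lines. The summed level of these markers was 7020 to 7250 CPM in REH controls and 7650 to 7740 CPM with *SOX11* siRNA. In 697 it was 5030 to 5470 CPM against 4390 to 4660 CPM, and in RCH-ACV 5310 to 5530 CPM against 4320 to 5400 CPM. The sums hold markers that moved in both directions. In REH 3 were called higher and 1 lower, or 4 of 9 tested, against 4.65% of all genes. For 697 it was 0 higher and 3 lower, or 3 of 10 tested, against 0.559%. For RCH-ACV it was 2 higher and 1 lower, or 3 of 10 tested, against 7.64%. In RCH-ACV *CD79A*, part of the B-cell receptor, rose (log2 fold change 0.46, adjusted p = 0.000256) and *DNTT*, the polymerase of V(D)J joining, fell (-0.37, adjusted p = 0.00689). None of 5 T cell markers had a mean over 1 CPM in any line, and *CD3D* was at 0 in every group. The stromal marker *PDGFRB* was counted in every line while *COL3A1* was at 0. Only 1 stromal marker was tested in each line, and 0 were called. Of the markers of other cell types, 3 were called, each from a list with 1 or 2 tested markers in its line. Over all genes 4.65% were called in REH and 7.64% in RCH-ACV, and shares of so few markers are not set against these. In REH the myeloid *MPO* fell from 13.5 to 7.84 CPM (log2 fold change -0.78, adjusted p = 0.000237). It was the only 1 of 5 myeloid markers over 1 CPM and the only 1 tested there. *IRF4*, from the plasma cell list, rose there from 107.5 to 142.3 CPM (0.41, adjusted p = 1.67e-06), the 1 called of 2 tested markers of that list. In RCH-ACV the endothelial *PECAM1* rose from 4.52 to 8.22 CPM (0.88, adjusted p = 0.00195). It was the only 1 of 3 endothelial markers over 1 CPM and the only 1 tested there. The part of these markers in the receptor values was not tested.

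CXCR4 binds CXCL12, the chemokine that holds B-cell precursors in the bone marrow niche, and couples to inhibitory G proteins that drive migration. ACKR3 binds the same ligand but signals through arrestin and clears it from the surroundings. CCR7 guides lymphocytes into lymph nodes along CCL19 and CCL21, and ACKR4 is a decoy that internalizes these ligands without G protein signalling. S1PR1 takes cells out of tissue into blood, while CXCR5, CCR10 and CXCR3 guide mature lymphocytes to follicles, to skin and mucosa, and to inflamed tissue.

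RefSeq promoter windows were at hand for *CXCR4*, *S1PR1*, *CXCR5* and *CXCR3*, which include the highest and the lowest of the 8 receptors in these libraries. The 250 bases before 1 start of each are printed 5′ to 3′ on the strand of the gene, with CpG dinucleotides in capitals, to show the base composition at these starts. Of 3 *CXCR4* windows, the one printed has the most CpG dinucleotides. All are from GRCh38.p14 (chr2:136118150-136118399 minus strand, chr1:101236769-101237018 plus strand, chr11:118893142-118893391 plus strand and chrX:71618512-71618761 minus strand).
CXCR4: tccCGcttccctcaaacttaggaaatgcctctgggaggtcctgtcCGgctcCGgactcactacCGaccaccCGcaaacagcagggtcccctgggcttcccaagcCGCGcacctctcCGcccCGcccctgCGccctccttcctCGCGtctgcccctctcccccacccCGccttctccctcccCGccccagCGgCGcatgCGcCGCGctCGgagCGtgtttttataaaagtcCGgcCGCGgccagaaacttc
S1PR1: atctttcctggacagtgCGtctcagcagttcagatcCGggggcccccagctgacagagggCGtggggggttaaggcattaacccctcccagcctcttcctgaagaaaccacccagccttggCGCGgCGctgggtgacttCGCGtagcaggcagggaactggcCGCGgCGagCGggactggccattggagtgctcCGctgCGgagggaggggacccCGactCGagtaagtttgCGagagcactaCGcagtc
CXCR5: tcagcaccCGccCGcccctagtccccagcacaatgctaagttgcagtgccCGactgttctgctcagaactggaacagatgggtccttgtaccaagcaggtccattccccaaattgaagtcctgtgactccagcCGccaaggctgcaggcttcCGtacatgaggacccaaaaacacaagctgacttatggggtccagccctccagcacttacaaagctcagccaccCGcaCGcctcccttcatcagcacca
CXCR3: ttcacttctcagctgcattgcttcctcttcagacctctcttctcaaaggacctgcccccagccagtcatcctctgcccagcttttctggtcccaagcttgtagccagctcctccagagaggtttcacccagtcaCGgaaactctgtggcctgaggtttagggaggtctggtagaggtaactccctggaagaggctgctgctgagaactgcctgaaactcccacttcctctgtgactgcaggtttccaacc

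The *CXCR4* window held 24 CpG dinucleotides, more than 76.3% of 35116 such windows, whose median was 11. The 2 other *CXCR4* windows held 8 (more than 43.7% of windows) and 12 (51.5%). *S1PR1* had 18 (more than 63.2% of windows), *CXCR5* 7 (41.1%) and *CXCR3* 1 (6.06%). The windows were also searched on both strands for the word ACAAT, for the longer word AACAAT that contains it, and for the word ACAAAG, which are of the kind that SOX proteins bind. *CXCR5* held 1 match to ACAAT and 1 to ACAAAG, and the *CXCR4*, *S1PR1* and *CXCR3* windows printed here held 0. The 2 other *CXCR4* windows held 1 match each to ACAAAG. Of all windows, 24.6% held ACAAT, 8.98% AACAAT and 13.7% ACAAAG, so such matches are frequent, and no match says only that these letters are not in this window.

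*CXCR4* (chromosome 2 of hg19 from 136871919 to 136876747, minus strand, 2 exons) was by far the most counted of the receptors, and its level differed between the lines. With control siRNA it stood at 466, 430 and 429 CPM in REH, at 249, 254 and 246 CPM in RCH-ACV, and at 105, 91.0 and 98.1 CPM in 697. The libraries of the 3 lines did not overlap, with REH highest and 697 lowest. Against REH the log2 difference was -0.82 in RCH-ACV (SE 0.05, adjusted p = 2.83e-11) and -2.17 in 697 (SE 0.05, adjusted p = 6.45e-17). RCH-ACV lay above 697 by 1.35 (SE 0.05, adjusted p = 2.47e-13). These 3 contrasts share their control samples, and lines differ so widely that 76.3% of 13686 genes passed for 697 against REH, 73.9% for RCH-ACV against REH and 64.2% for RCH-ACV against 697. In such bulk RNA, fewer cells with the transcript and less transcript per cell cannot be told apart.

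**Figure D1:**
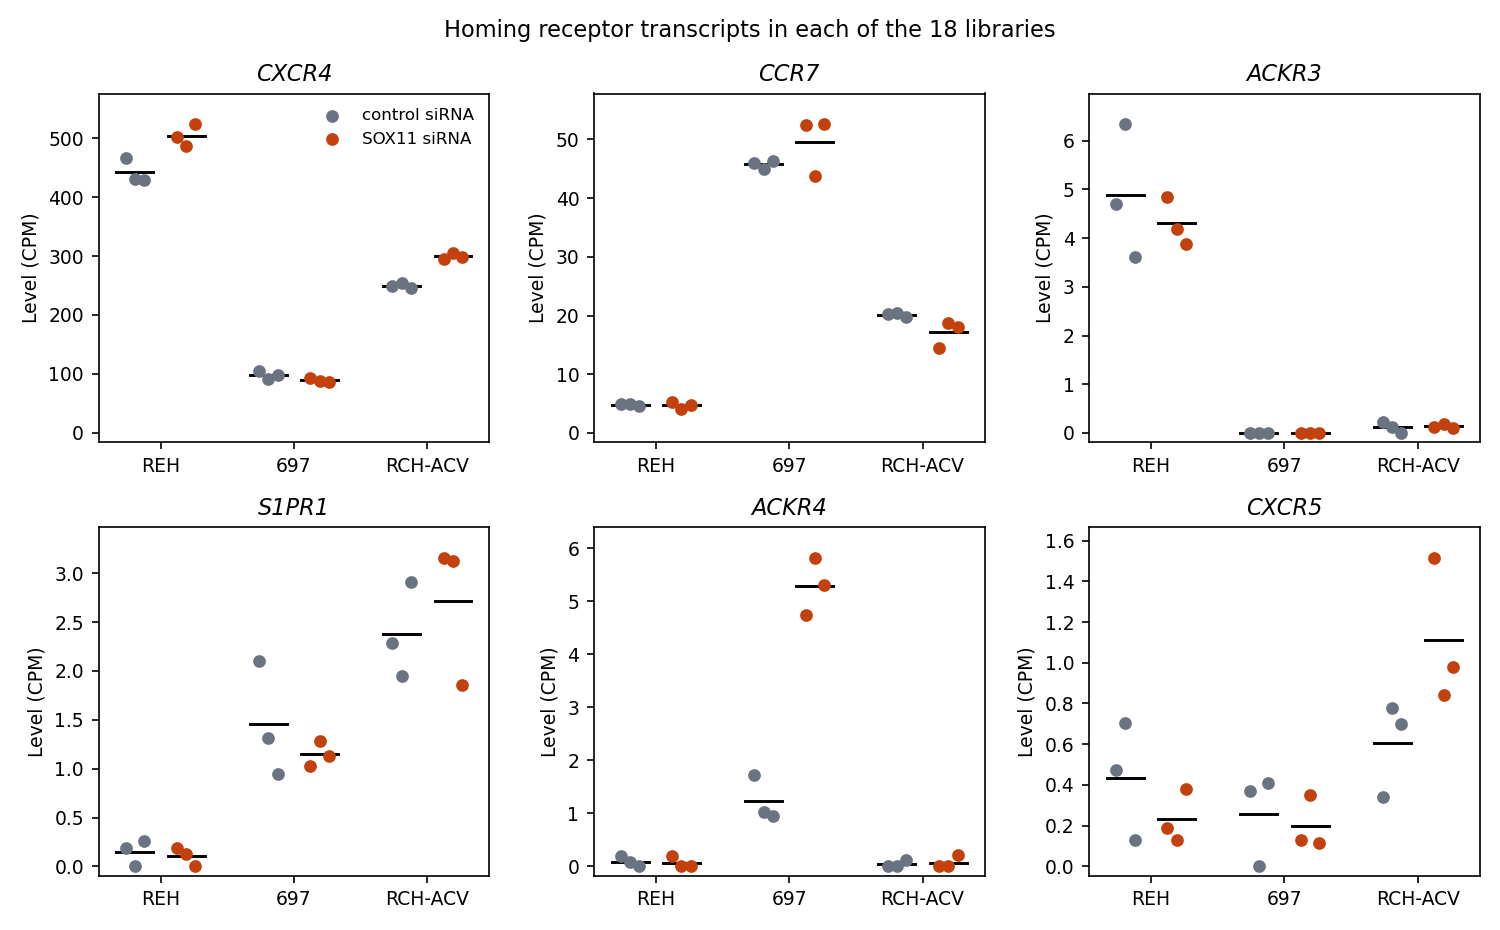
Level of 6 receptors in each library, in CPM on linear axes that include 0, with control siRNA in grey and *SOX11* siRNA in orange. Points are libraries and bars are means of 3. *CXCR4* is higher with *SOX11* siRNA in REH and RCH-ACV with no overlap, and *ACKR4* stands apart in 697.

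With *SOX11* siRNA, *CXCR4* rose in REH and in RCH-ACV. In REH the treated libraries were at 502, 486 and 523 CPM, all above the highest control. The log2 fold change was 0.20 (SE 0.04, 1.15-fold, adjusted p = 0.0015). The RCH-ACV libraries were at 295, 306 and 298 CPM, again all above the controls, with a log2 fold change of 0.26 (SE 0.04, 1.2-fold, adjusted p = 0.000635). In 697 they were at 94.0, 87.5 and 86.6 CPM and overlapped the controls. There the log2 fold change of -0.14 (SE 0.06) had an unadjusted p of 0.0484 and an adjusted p of 0.595.

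*CXCR4* was the 1 member called of 3 that passed the filter on low counts in REH, where 4.65% of 12787 genes were called. In RCH-ACV it was the 1 called of 3, against 7.64% of 12963 genes. In 697, 0 of the 3 members tested there (*CXCR4*, *CCR7* and *S1PR1*) were called by edgeR and 0 by DESeq2, 1 had an unadjusted p under 0.05, and 0.559% of 12169 genes were called. The groups of the members that passed the filter did not overlap for 1 in REH (*CXCR4*), 1 in 697 (*ACKR4*, which was chosen for it) and 2 in RCH-ACV (*CXCR4* and *CCR7*), while 21.5%, 12.6% and 25.8% of all tested genes did not overlap in these lines.

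The effect on *CXCR4* differed between the lines in a test of the interaction of siRNA and line (adjusted p = 0.00949), which 0.727% of 14026 genes passed. By contrasts chosen after seeing the data, the effect in 697 lay below that in REH by 0.34 on the log2 scale (difference -0.34, SE 0.07, adjusted p = 0.0373, passed by 0.285% of genes). The effect in RCH-ACV lay 0.41 above that in 697 (SE 0.07, adjusted p = 0.0182, passed by 0.0998% of genes). Between RCH-ACV and REH the difference was 0.07 (SE 0.07, adjusted p = 0.795, passed by 0.713% of genes). A second *CXCR4* transcript in the tables, not used for these values, had nearly the same total, 49104 against 49130 counts over the 18 samples.

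**Figure D2:**
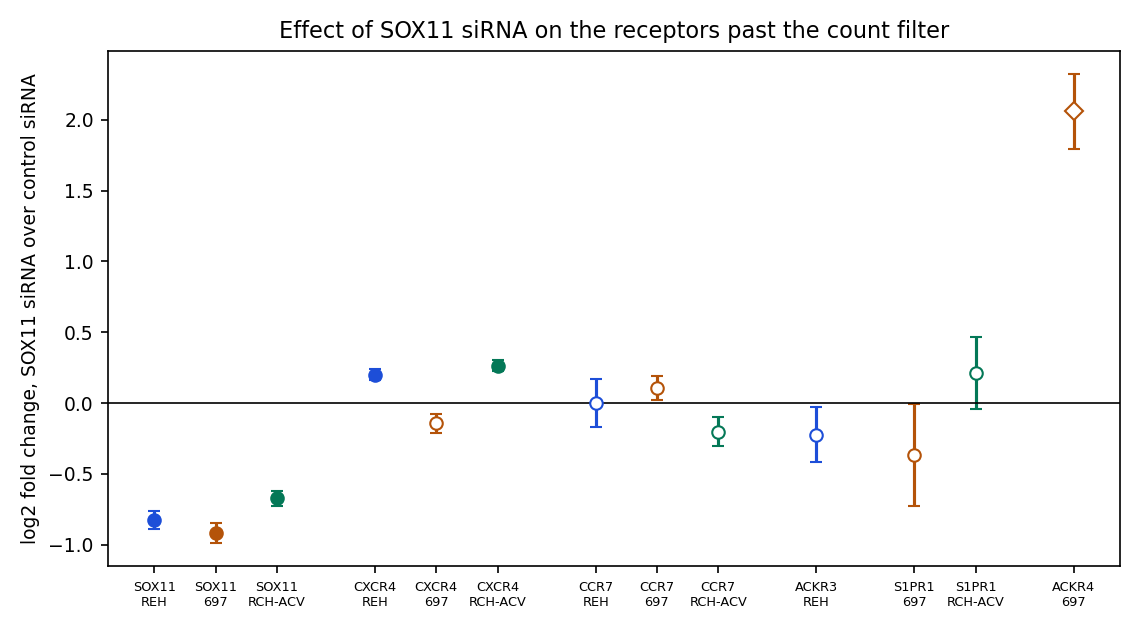
log2 fold change of *SOX11* siRNA over control siRNA (vertical axis) with its standard error, for *SOX11* and each receptor past the filter on low counts, coloured by line. Filled circles have an adjusted p under 0.05, open circles do not, and the open diamond for *ACKR4* in 697 is a value that was not tested. *CXCR4* is filled in REH and RCH-ACV and open in 697.

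*ACKR3* (chromosome 2 from 237476430 to 237490997, plus strand), the scavenging partner of CXCR4, was counted in REH and barely elsewhere. REH controls had 50, 81 and 28 counts, or 4.89 CPM ± 1.37 (SD, n = 3). The 6 libraries of 697 were at 0 counts, which allows up to between 0.339 and 0.437 CPM per library. RCH-ACV had 0 to 3 counts per library. Over the controls, REH stood at least 38.0-fold above 697 when 697 is set to 3 counts over the group, and 42.6-fold above RCH-ACV (95% counting interval 14.3 to 208.9). *ACKR3* passed the filter of the fit over the control samples through REH alone, so its call against the other lines (adjusted p = 9.17e-09 and 1.69e-08) restates that it was counted there. With *SOX11* siRNA REH had 51, 32 and 41 counts, or 4.31 CPM ± 0.492. The groups overlapped, and the log2 fold change was -0.23 (SE 0.19, adjusted p = 0.62).

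*CCR7* (chromosome 17 from 38710021 to 38721724, minus strand, 3 exons), the lymph node receptor, stood in the order opposite to that of *CXCR4*. Control libraries were at 46.0, 45.0 and 46.4 CPM in 697, at 20.2, 20.4 and 19.7 CPM in RCH-ACV and at 4.99, 4.93 and 4.51 CPM in REH. Again no library of one line overlapped with another. The log2 difference from REH was 3.24 in 697 (SE 0.10, adjusted p = 1.13e-15) and 2.06 in RCH-ACV (SE 0.11, adjusted p = 1.01e-11). RCH-ACV lay 1.19 below 697 (log2 difference -1.19, SE 0.08, adjusted p = 1.71e-10). 697 and RCH-ACV thus both held less *CXCR4* and more *CCR7* than REH.

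*SOX11* siRNA left *CCR7* without a called change in any line. In 697 treated libraries were at 52.5, 43.8 and 52.6 CPM, on both sides of the controls, and the log2 fold change was 0.10 (SE 0.08, adjusted p = 0.856). In REH they were at 5.33, 4.06 and 4.84 CPM (log2 fold change 0.00, SE 0.17, adjusted p = 0.999). In RCH-ACV they were at 14.5, 18.8 and 18.1 CPM, all below the lowest control. The log2 fold change there was -0.20 (SE 0.10, unadjusted p = 0.0655, adjusted p = 0.257). The interaction of siRNA and line had an adjusted p of 0.551.

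**Figure D3:**
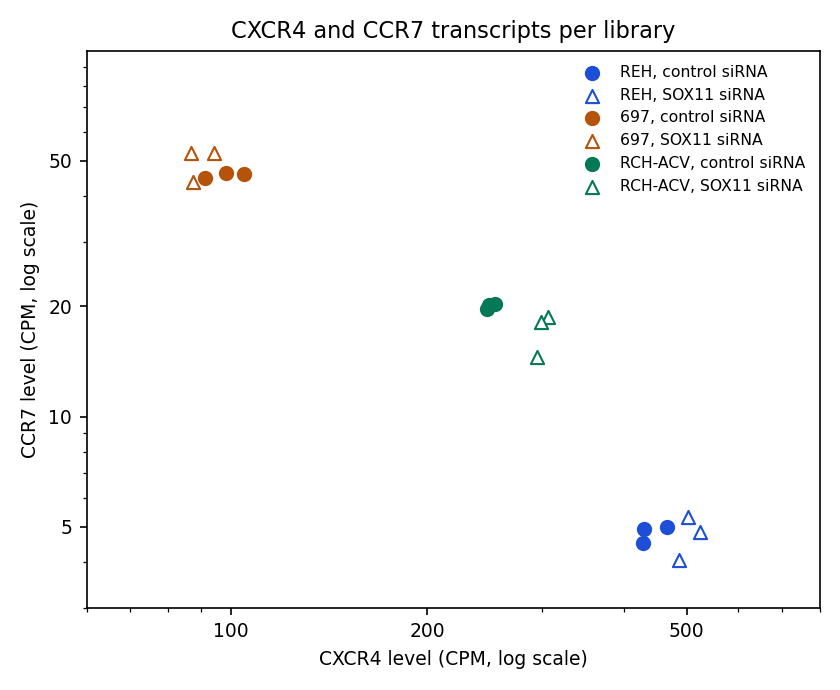
*CXCR4* level (horizontal axis) and *CCR7* level (vertical axis) of each library in CPM, both on log scales, with filled circles for control siRNA and open triangles for *SOX11* siRNA. The 3 lines form separate groups, REH with the highest *CXCR4* and lowest *CCR7*, 697 the reverse, and RCH-ACV between them.

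Levels of different genes can be set side by side only per length of transcript, here as RPKM (CPM per kilobase of the Ensembl canonical transcript). With control siRNA *CXCR4* had 264.8 RPKM ± 12.8 in REH, 149.6 ± 2.27 in RCH-ACV and 58.7 ± 4.12 in 697 (SD, n = 3). It made up 98.2%, 93.5% and 72.5% of the summed RPKM of the 8 receptors. *CCR7* had 2.21 RPKM ± 0.12 in REH, 9.24 ± 0.168 in RCH-ACV and 21.1 ± 0.335 in 697, or 0.822%, 5.77% and 26.1% of the sum. With *SOX11* siRNA the *CXCR4* share in 697 lay between 65.7% and 69.2% against 71.6% to 73.3% in controls, and the *ACKR4* share between 2.47% and 3.33% against 0.507% to 0.875%. The shares of a sum depend on each other, and *ACKR4* was selected on this contrast, so no test was made of them.

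**Figure D4:**
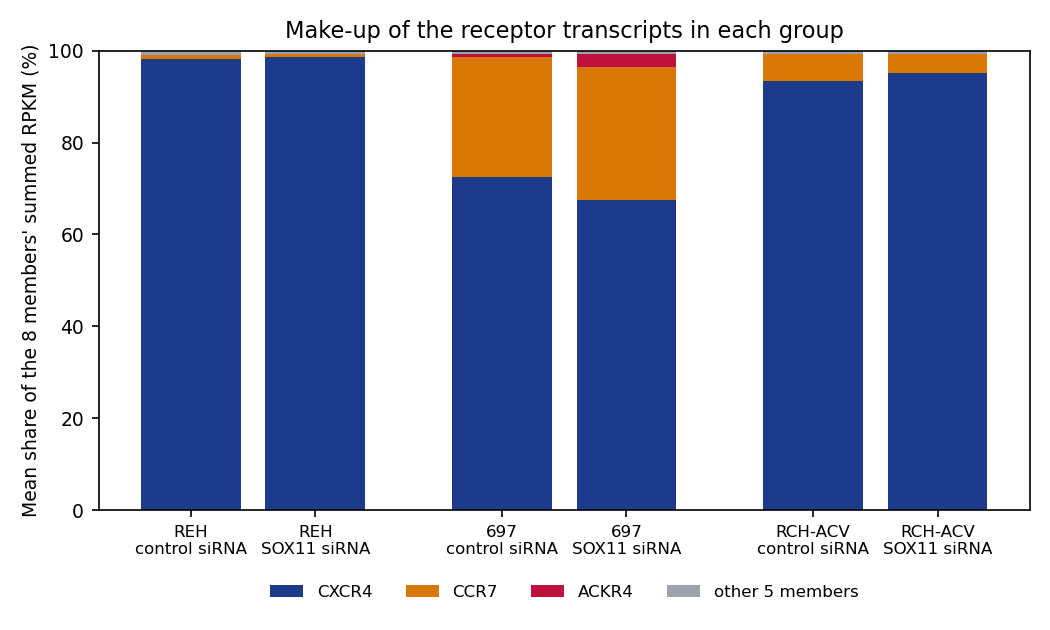
Mean share (%) of the summed RPKM of the 8 receptors in each group of 3 libraries, as stacked bars from 0 to 100. *CXCR4* makes up 98.2% in REH controls, 93.5% in RCH-ACV controls and 72.5% in 697 controls, where *CCR7* holds 26.1%.

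*ACKR4* (chromosome 3 from 132316114 to 132337811, plus strand, 2 exons), the decoy for the ligands of CCR7, was counted in 697 above the few reads seen in the other lines. 697 controls had 14, 7 and 7 counts and the libraries with *SOX11* siRNA 37, 50 and 47. On the CPM scale these were 1.23 ± 0.433 and 5.29 ± 0.544 (SD, n = 3), and no treated library overlapped a control. The log2 fold change was 2.06 (SE 0.26), rank 1 of 12169 genes. The next in rank were *LOC100130872* at 1.67 (SE 0.40) and *TNFRSF14-AS1* at 1.55 (SE 0.35). The summed counts were 134 and 28.

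REH and RCH-ACV libraries had 0 to 2 counts of *ACKR4* with either siRNA, too few to show an effect in either direction. Among controls, 697 stood 13.0-fold above REH (28 against 3 counts, 95% counting interval 4.02 to 67.0) and 31.4-fold above RCH-ACV (28 against 1 count, interval 5.20 to 1286). All 2310 exonic bases of *ACKR4* lie within *ACAD11*, which runs on the other strand. The libraries were made with a stranded kit, and whether the counting used strand is not given in the sources used here. *ACAD11* had 20.8 CPM ± 3.26 in 697 controls and 21.4 CPM ± 4 with *SOX11* siRNA (log2 fold change 0.03, SE 0.16, adjusted p = 0.986), and 16.4 to 23.5 CPM as group means over the 3 lines. A second *ACKR4* transcript in the tables had 33, 44 and 43 counts with *SOX11* siRNA and 14, 5 and 7 with control siRNA in 697.

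*S1PR1* (chromosome 1 from 101702421 to 101709269, plus strand), the egress receptor, was low in each line. Controls had 17, 9 and 7 counts in 697, 20, 15 and 25 in RCH-ACV, and 2, 0 and 2 in REH. The mean level was 1.46 CPM ± 0.59 in 697, 2.38 ± 0.489 in RCH-ACV and 0.149 ± 0.133 in REH (SD, n = 3). Both of these lines had more reads than REH, 697 by 11.5-fold (95% counting interval 4.10 to 44.8) and RCH-ACV by 18.7-fold (6.92 to 70.7). The gene passed the filter through these lines, so a call against REH (adjusted p = 4.28e-05 and 7.65e-07) was bound to follow. RCH-ACV and 697 were not told apart (log2 difference 0.69, SE 0.33, adjusted p = 0.072), although without the first 697 control the difference was 1.08 with an adjusted p of 0.0175.

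With *SOX11* siRNA *S1PR1* had 8, 11 and 10 counts in 697, within the range of the controls (log2 fold change -0.37, SE 0.36, adjusted p = 0.896). RCH-ACV had 25, 52 and 17 counts, of which the second library was the most deeply sequenced (log2 fold change 0.21, SE 0.25, adjusted p = 0.667). With standard errors this large, a change of the size seen for *CXCR4* was not detectable at this depth.

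*CXCR5*, *CCR10* and *CXCR3*, receptors of mature and effector lymphocytes, were under the filter in every comparison. *CXCR5* (chromosome 11 from 118754601 to 118768496, plus strand) had 0 to 14 counts per library. RCH-ACV had 12, 14 and 9 with *SOX11* siRNA and 3, 6 and 6 with control siRNA, a ratio of 1.73 whose 95% counting interval reached from 0.923 to 3.42. Of its 4293 exonic bases, 3913 lie within *BCL9L* on the other strand, which had 79.0 CPM ± 4.38 and 71.2 ± 4.89 in the same groups and 24.8 to 30.7 CPM as group means in the other lines. *CCR10* (chromosome 17 from 40830907 to 40835935, minus strand) had 16 counts in all and 0 to 3 per library, none of them in REH. *CXCR3* (chromosome X from 70835766 to 70838361, minus strand) had 1 count in 18 libraries.

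The genes whose level followed each receptor most closely over the 18 samples were looked up among 13342 others with a mean of at least 1 CPM. They are a description, since the points fall into 3 lines and any gene that differs between lines in the same order has a high correlation. *CXCR4* was closest to *ACCS*, *FLJ16779* and *EIF1AD* (Pearson's r of log2 CPM 0.9956, 0.9956 and 0.9945). *CCR7* was closest to the ribosomal protein genes *RPL30* and *RPL19* and to *TMCC3* (0.9953, 0.9948 and 0.9947). *ACKR3* was closest to *GLMP*, *HLA-DRB5* and *WNK3* (0.9935, 0.9933 and 0.9924), *S1PR1* to *SUCLG2*, *ABTB3* and *NFAM1* (0.9702, 0.9695 and 0.9695), and *ACKR4* to *SECISBP2L*, *ZNF501* and *ATF7-AS1* (0.9598, 0.9569 and 0.9556).

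Of other receptors, those for chemokines were few. Of 16 further chemokine receptors, 1 (*CCRL2*) passed the filter in REH and 0 in 697 and RCH-ACV, and its log2 fold change was -0.20 (SE 0.32, adjusted p = 0.822). Of 13 further homing receptors, 7, 5 and 8 were tested in REH, 697 and RCH-ACV, and 2 were called, both in RCH-ACV (25% of those tested, against 7.64% of all genes). *LPAR6*, a receptor for lysophosphatidic acid, fell from 34.3 CPM ± 1.65 to 23.5 ± 1.87 (log2 fold change -0.53, SE 0.08, adjusted p = 0.000745). *S1PR2*, which restrains migration towards sphingosine 1-phosphate, rose from 8.90 CPM ± 1.08 to 12.9 ± 1.47 (log2 fold change 0.55, SE 0.13, adjusted p = 0.0168). The *S1PR2* call was lost without *SOX11* siRNA replicate 1 or 2 or control replicate 2 or 3 and with DESeq2, with log2 fold changes between 0.47 and 0.64 over the alternatives. *S1PR4*, a further homing receptor named here after its values were seen, stood at 68.5 CPM in REH controls. In controls of 697 and RCH-ACV it stood at 28.4 and 31.9 CPM. The median log2 fold change of the tested further homing receptors was 0.22 in RCH-ACV, 0.03 in REH and -0.07 in 697, and over all genes it lay between -0.0035 and 0.005.

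Of 26 ligands and ligand enzymes, 8, 8 and 9 were tested in REH, 697 and RCH-ACV, and 1 was called, in RCH-ACV (11.1%, against 7.64% of all genes). *MIF*, which binds CD74 and also CXCR4, rose in RCH-ACV from 158.2 CPM ± 21.0 to 193.2 ± 10.2 (log2 fold change 0.29, SE 0.07, adjusted p = 0.0204). That call was lost without *SOX11* siRNA replicate 1 or 2 or control replicate 2 (log2 fold change 0.18 to 0.35 over the alternatives). *CXCL12*, named here after its values were seen, had 0 counts in REH and 697 and 55 in the 6 RCH-ACV libraries, or 1.12 CPM ± 0.0632 with control siRNA and 0.798 ± 0.176 with *SOX11* siRNA, under the filter.

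Of 27 genes that carry and switch off the receptor signal, 26, 25 and 24 were tested. In REH 1 was called (3.85%, against 4.65% of all genes), in 697 0 and in RCH-ACV 2 (8.33%, against 7.64%), shares near those over all genes. *GNAI1*, an inhibitory G protein subunit, rose in REH from 54.3 CPM ± 1.51 to 71.5 ± 0.91 (log2 fold change 0.41, SE 0.05, adjusted p = 2.19e-05). In RCH-ACV *GRK3*, a kinase that desensitizes receptors, rose by 0.27 (SE 0.08, adjusted p = 0.0446) and *ARRB1*, which encodes an arrestin, had a log2 fold change of -0.23 (SE 0.05, adjusted p = 0.00769). The *ARRB1* call was lost without *SOX11* siRNA replicate 1 or 2 or control replicate 1, and that of *GRK3* in 7 of 10 alternatives.

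Among 33 genes of the migration machinery, 33, 32 and 33 were tested. In REH 6 were called (18.2%, against 4.65% of all genes), all higher. In RCH-ACV 5 were called (15.2%, against 7.64%), of which 4 were higher and 1 lower. *RAC2*, a small GTPase of blood cells, and *DOCK2*, an activator of RAC proteins, were called in both. *RAC2* rose from 107.3 CPM ± 6.29 to 135.7 ± 4.44 in REH (log2 fold change 0.35, SE 0.05, adjusted p = 4.51e-05) and from 95.3 CPM ± 4.64 to 130.7 ± 6.64 in RCH-ACV (0.46, SE 0.06, adjusted p = 1e-04). In 697 it stood at 123.5 CPM ± 9.1 and 140.5 ± 3.98 (0.18, SE 0.06, adjusted p = 0.448), and the interaction had an adjusted p of 0.252. *DOCK2* rose from 245.5 CPM ± 11.5 to 271.9 ± 3.59 in REH (0.16, SE 0.04, adjusted p = 0.0146) and from 207.0 CPM ± 5.27 to 240.9 ± 15.8 in RCH-ACV (0.21, SE 0.05, adjusted p = 0.0133). Its call was lost in REH without *SOX11* siRNA replicate 1 or control replicate 1 or 3, and in RCH-ACV without control replicate 1 or 3.

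In REH *PIK3CD*, a phosphoinositide 3-kinase subunit, rose by 0.21 (SE 0.04, adjusted p = 0.00204) and *EZR*, which links the membrane to actin, by 0.19 (SE 0.03, adjusted p = 0.0013). *WAS*, an activator of actin branching, rose by 0.20 (SE 0.06, adjusted p = 0.036), a call that was lost without each of the 6 samples. In RCH-ACV *PIK3R5*, a regulatory subunit of phosphoinositide 3-kinase, rose by 0.47 (SE 0.10, adjusted p = 0.00737). *PIK3R5* lost its call without *SOX11* siRNA replicate 2 or control replicate 1. *RASSF5*, an effector of RAP1 in integrin activation, had a log2 fold change of -0.26 (SE 0.04, adjusted p = 0.0015). For *PIK3CD* and *RASSF5* the effect differed between lines (interaction, adjusted p = 0.00358 and 0.0255). Without *SOX11* siRNA replicate 3, 13 genes of the list were called in RCH-ACV, and without control replicate 1, 2 were. In REH 3 were called without *SOX11* siRNA replicate 1, control replicate 1 or control replicate 3.

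Of 9 regulators of these receptors, 8, 7 and 7 were tested. In REH 2 were called (25%, against 4.65% of all genes), both higher, in 697 0 and in RCH-ACV 1 (14.3%, against 7.64%), which was lower. *FOXO1*, a transcription factor upstream of several homing receptors, rose in REH by 0.14 (SE 0.04, adjusted p = 0.0479), a call lost in 9 of 10 alternatives. *SATB1*, a chromatin organizer, fell in RCH-ACV from 65.6 CPM ± 2.45 to 43.96 ± 5.71 (log2 fold change -0.60, SE 0.08, adjusted p = 0.000253), an effect that differed between lines (interaction, adjusted p = 0.00107). Over the 6 lists, 9 of 83 tested genes were called in REH (10.8%, against 4.65% of all genes) and 11 of 81 in RCH-ACV (13.6%, against 7.64%). The lists were chosen with earlier results of these data known, so these shares and those of each list are a description. In 697, 0 of 77 were called by edgeR, against 0.559% of all genes, and 1 by DESeq2. There 13 had an unadjusted p under 0.05 by edgeR. The share of all genes under that unadjusted p was not taken, so no effect is read from the 13.

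**Figure D5:**
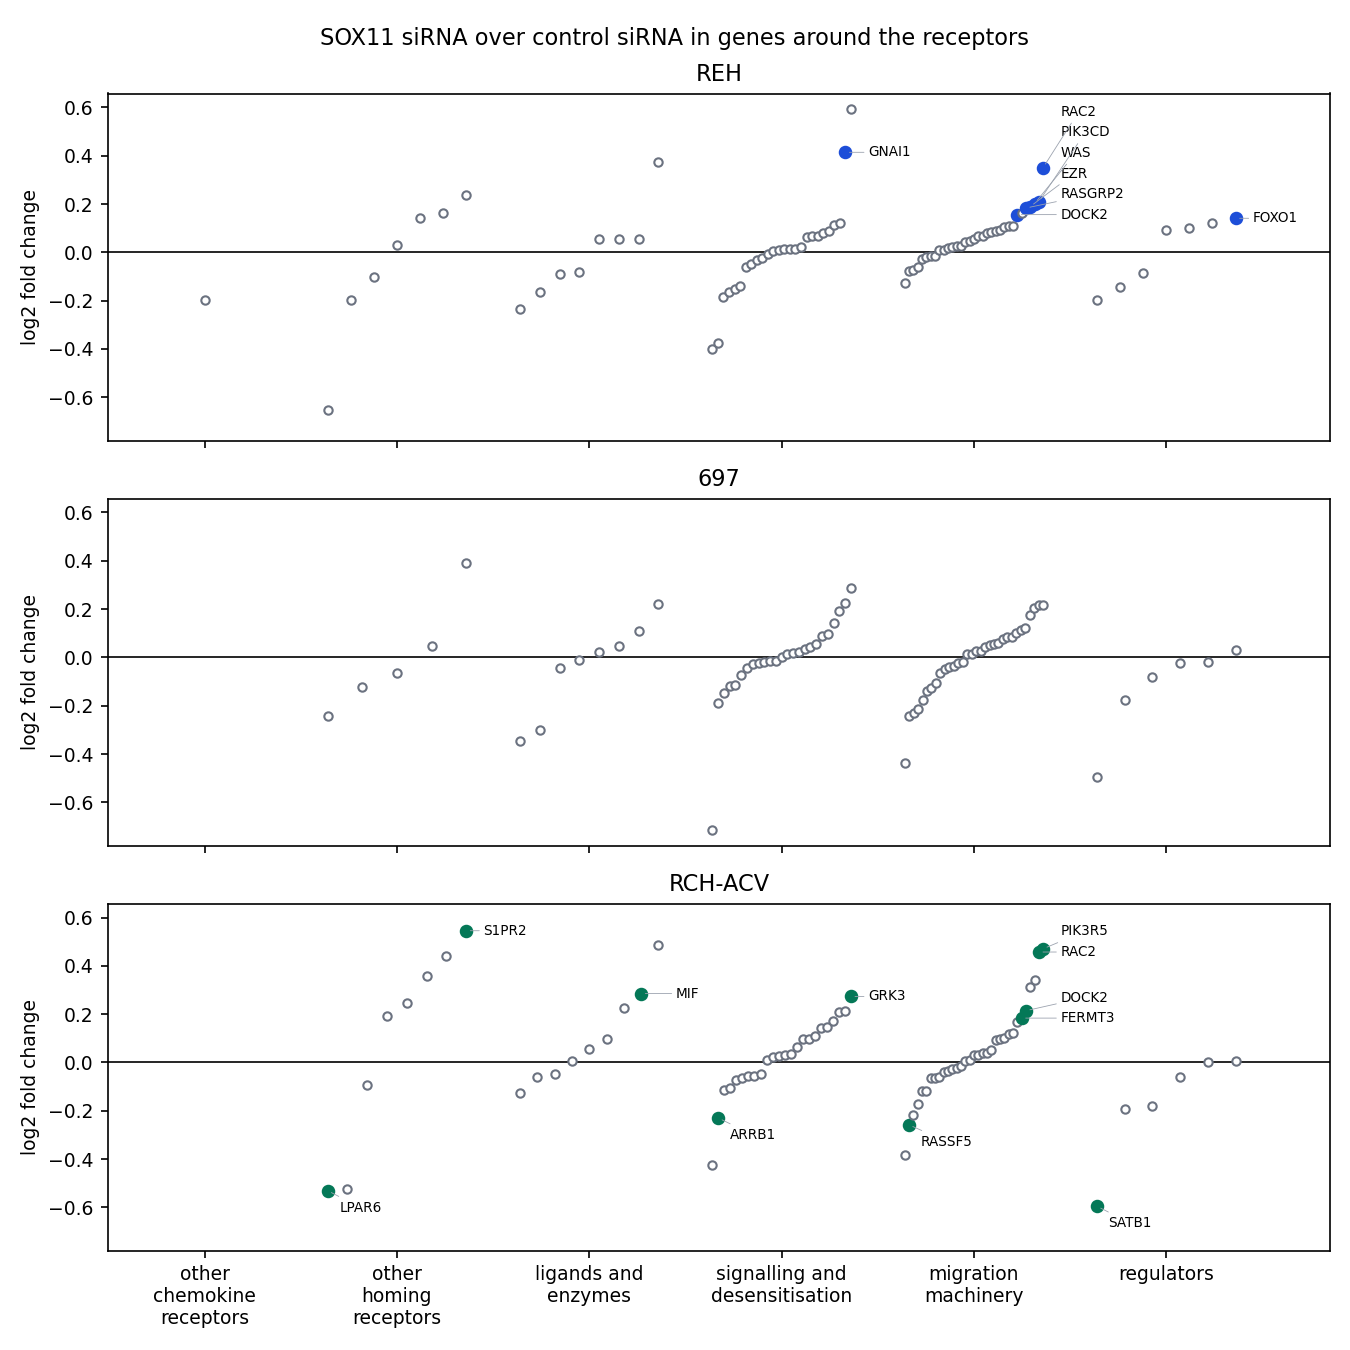
log2 fold change of *SOX11* siRNA over control siRNA (vertical axes) for the tested genes of 6 lists (horizontal axis, sorted by value within a list), in 1 panel for each line, with 1 regulator left out. Filled and named points have an adjusted p under 0.05, and open points do not. Named points appear in REH and RCH-ACV, *RAC2* and *DOCK2* in both, and 697 has 0.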

How the data were processed

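RNA sequencing covered 18 samples, with 3 replicates for each siRNA and line. The authors checked reads with FastQC 0.10.1, trimmed them, aligned them to hg19 with STAR 2.5.3a and counted them per RefSeq transcript with HOMER, and deposited raw counts without normalization. Whether counting used strand is not given in the sources used here. RefSeq identifiers were matched to symbols (98.0% of 50678 transcripts, 99.0% of counts), and the transcript with the highest total was kept for each gene.

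Differential expression was tested with the quasi-likelihood F-test of edgeR 4.0.16 (R 4.3.3) after TMM scaling and filterByExpr, separately in each line, over the 9 control samples between lines, and over the 18 samples for the interaction. Calls had an adjusted p under 0.05 (Benjamini-Hochberg over all genes tested). Ranges in brackets after count ratios are exact 95% intervals, which cover counting error only. Transcript lengths and positions came from GENCODE annotation on hg19. DESeq2 1.42.0, other scalings and filters, a replicate block and fits without each sample were alternatives. The named genes are the 8 receptors, *SOX11*, up to 4 called genes with the largest change for each list and line, and the 3 genes closest to each receptor over the samples. Of these, 1 called gene is not reported here. The receptors and lists were chosen with earlier results of these data known. The analysis scripts were tested on simulated data.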

Additional observations from a re-analysis of the deposited data

Results flagged for a closer look

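The effect of *SOX11* siRNA on *CXCR4* differed between the 3 lines by the interaction test of edgeR (adjusted p = 0.00949), where the log2 fold change was 0.20 for REH, 0.26 for RCH-ACV and -0.14 for 697. All 3 treated libraries lay above all 3 controls in REH and in RCH-ACV, and the groups overlapped in 697. The adjusted p lay between 0.0004519 and 0.03421 over 26 alternatives.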

How the results depend on the processing

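Of 904 values recomputed under alternatives, 838 kept their side of the threshold or stayed near the main value, and 65 moved. Of the receptor values, only 1 came to pass the threshold (*S1PR1*, RCH-ACV against 697), and 0 called values reversed. Genes of the lists entered as counts of calls, so calls that single list genes gained or lost are not among these values. A value that was not called could change sign and still count as kept. The log2 fold change of *ACKR3* in REH did so, from -0.358 to 0.0315 over the alternatives. The *CXCR4* calls in REH and RCH-ACV held in each of 15 alternatives per line, with log2 fold changes of 0.175 to 0.2469 and 0.249 to 0.2775. *ACKR4* in 697 lay between 1.90 and 2.40, the highest without control replicate 1. Counts over all genes moved more. DESeq2 called 315 genes in REH and 577 in RCH-ACV, and 1 fit over the 18 samples called 242 in REH and 193 in 697. Without each sample in turn, 299 to 521 genes were called in REH, 25 to 71 in 697 and 386 to 2518 in RCH-ACV (2518 without *SOX11* siRNA replicate 3), and 57 to 185 for the interaction. The cause was not tested. The contrast of the siRNA effect in RCH-ACV with that in REH, added after seeing the data, called 0 receptors. Scaling by library size alone moved the median of all genes by -0.1339 for 697 against REH, and other scalings moved it by less. With the replicate number as a replicate block, 29 genes were called in 697, 477 in REH, 690 in RCH-ACV and 80 for the interaction, and the number of receptors called was the same in each comparison. *WAS*, *FOXO1* and *GRK3* lost their calls. For a check of pairing, the group mean of each gene was subtracted from its log2 CPM. These deviations correlated by -0.2441 to 0.2642 between same-numbered samples of the 2 siRNAs. By the deviations, the closest sample of the other siRNA had the same number for 0 of 6 REH samples. It did for 2 of 6 of 697 and for 1 of 6 of RCH-ACV, so the numbers were not taken to pair the samples. Depth limits *ACKR4*, *CXCR5*, *CCR10* and *CXCR3*, the receptors with the fewest counts.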
